A study of Gallus gallus with 6 samples.

Results

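The neural tube progenitor genes followed here are 10 transcription factor genes, PAX6, SOX1, SOX2, SOX3, OTX2, OLIG2, NKX2-2, IRX3, DBX2 and LMX1A. They were taken from the array as every probe set whose annotation gives exactly 1 gene symbol that equals one of these names. This found 8 probe sets for 7 genes, of 38535 probe sets and 13009 gene symbols in all, and no such probe set for NKX2-2, IRX3 or LMX1A. A probe set is the group of short oligonucleotides on the array that together read 1 transcript.

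Transcript levels were measured on 6 chicken expression arrays, from neural crest cultures of Brown Leghorn background that formed 2 groups of 3 biological replicates. In the first group, called v-Myb here, a retrovirus delivered v-Myb-L3,4A-HAER, a v-Myb oncoprotein with a mutated leucine zipper whose activity is switched on by 4-OH-tamoxifen. In the second group, called N118D here, the construct was v-Myb-L3,4A-N118D-HAER, whose DNA-binding domain is altered by the further substitution N118D. Both groups carried the zipper mutation, expressed their construct constitutively, and were kept in 4-OH-tamoxifen, 200 nM, over a period of 4 hours, and no array came from untreated or uninfected cells. The cultures were started from whole neural tubes of stage 10 to 13 embryos. The explanted tissue was taken off after 3 days and the cells that had crawled out were kept. The labels do not say whether replicates came from separate embryo pools, so the tests measure the spread between these cultures. In such bulk RNA, fewer cells of a type and less RNA per cell cannot be told apart.

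The neural tube is built from dividing progenitors that give rise to the neurons and glia of the brain and spinal cord. SOX1, SOX2 and SOX3, the SOXB1 factors, hold these cells in the progenitor state. Signals from the floor plate below and the roof plate above then divide the tube into domains, each marked by its own set of transcription factors. PAX6, IRX3 and DBX2 mark intermediate domains, OLIG2 the progenitors of motor neurons, NKX2-2 the domain next to the floor plate and LMX1A the roof plate, while OTX2 marks the forebrain and midbrain. Neural crest cells leave the dorsal edge of the same tube, where SOX2 is turned down as they form.

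For all 8 member probe sets the group means differed by less than the replicates of either group ranged. PAX6 had its highest level on v-Myb replicate 1 and its next highest on N118D replicate 3, and was lowest on v-Myb replicates 2 and 3. DBX2, SOX1 and SOX2 were also highest on v-Myb replicate 1 and next on N118D replicate 3. On N118D replicate 3, SOX1 (3.33) and SOX2 (3.91) were below 4. All 3 genes were below 4 on the other 4 arrays, where their order was not read. No member passed an adjusted p of 0.05 in limma, and 0% of the 16526 probe sets tested on the array did. The levels of the v-Myb and N118D arrays overlapped for all 8 member probe sets, while 5.74% of tested probe sets over the array had no overlap between the groups. At an unadjusted p under 0.05 the count was 0 of the 5 member probe sets tested, against 1.91% of all.

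Values are on the log2 scale, so a difference of 1 is a 2-fold change. A probe set was tested when it reached 4 on at least 3 of the 6 arrays, a filter on low values. Probe sets below it are called dim here. PAX6, SOX3, OLIG2 and both OTX2 probe sets passed this filter with 6 of 6 arrays at or above 4. DBX2 reached 4 on 2 arrays and SOX1 and SOX2 on 1 array each, so these 3 genes are given as values.

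Of the SOXB1 factors, SOX3 had log2 levels of 10.57, 9.84 and 10.19 in v-Myb replicates 1, 2 and 3, against 10.81, 10.31 and 10.46 in N118D replicates 1, 2 and 3. It was far above 4 on every array, lowest on v-Myb replicate 2 and highest on N118D replicate 1, and v-Myb replicate 1 lay within the N118D range. The mean level was 10.20 ± 0.37 on the v-Myb arrays and 10.53 ± 0.25 on the N118D arrays (SD, n = 3 per group). The groups differed by -0.33 (standard error 0.22, 95% confidence interval -0.87 to 0.22, limma adjusted p of 0.9999).

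SOX2 was at 4.14, 2.80 and 3.07 in v-Myb replicates 1, 2 and 3, against 3.41, 3.20 and 3.91 in N118D replicates 1, 2 and 3. Only v-Myb replicate 1 passed 4, and N118D replicate 3 came next. SOX1 was at 4.36, 2.65 and 2.66 in v-Myb replicates 1, 2 and 3, against 2.73, 2.70 and 3.33 in N118D replicates 1, 2 and 3. The same 2 arrays stood out, and the remaining 4 SOX1 values lay within 0.1 of each other, all below 4. The group means of SOX2 were 3.34 ± 0.71 on the v-Myb arrays and 3.51 ± 0.37 on the N118D arrays (SD, n = 3 per group). Those of SOX1 were 3.22 ± 0.98 on the v-Myb arrays and 2.92 ± 0.36 on the N118D arrays (SD, n = 3 per group). SOX3 had a range of 0.97 over the 6 arrays. The ranges of SOX2 and SOX1, 1.34 and 1.70, ran mostly below 4 and are not read as wider variation.

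**Figure D1:**
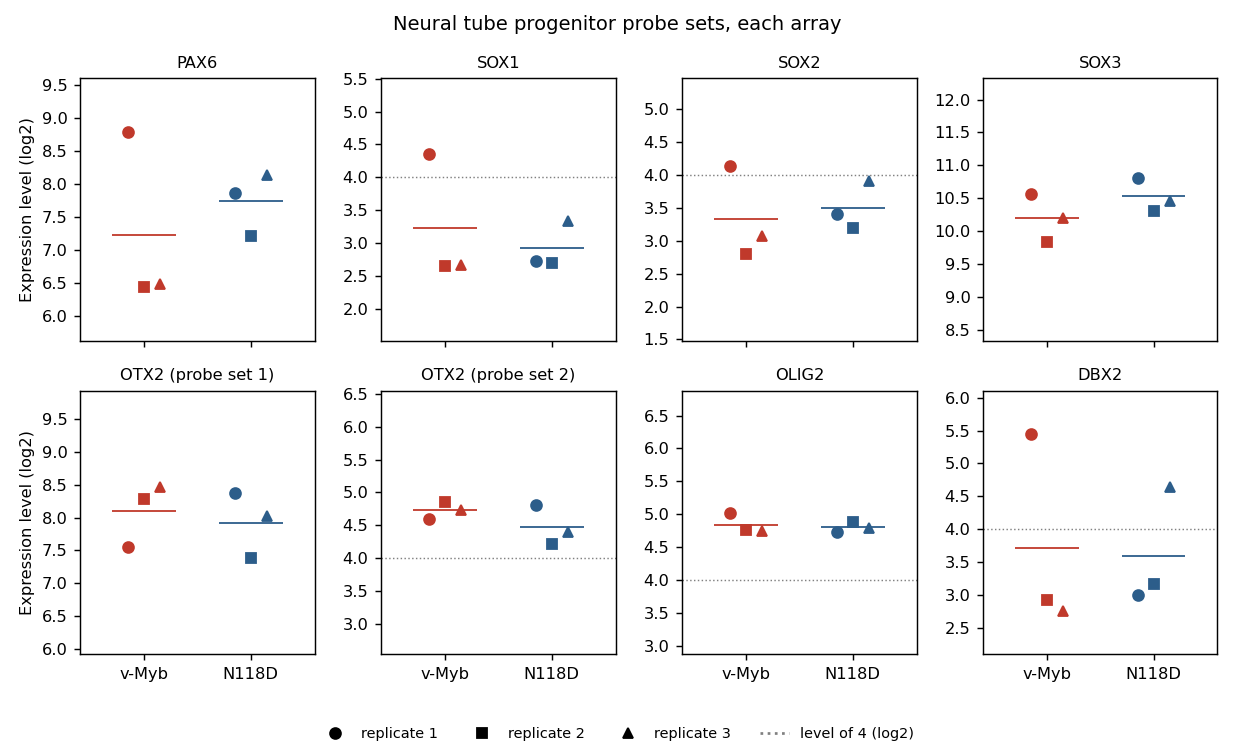
Log2 expression level (vertical axis, each panel spanning the same number of log2 units) of each member probe set on each array, with v-Myb arrays on the left, N118D arrays on the right, replicates by marker shape and group means as horizontal lines. The dotted line marks the level of 4 used for testing, and v-Myb replicate 1 is the highest array for PAX6, SOX1, SOX2, OLIG2 and DBX2.

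Among the domain factors, PAX6, a paired-box factor also needed for the eye, had log2 levels of 8.79, 6.43 and 6.48 in v-Myb replicates 1, 2 and 3, against 7.86, 7.21 and 8.13 in N118D replicates 1, 2 and 3. The v-Myb arrays held both the highest value and the 2 lowest, and all N118D arrays lay in between. The highest and lowest arrays were 5.13-fold apart. The means were 7.23 ± 1.35 on the v-Myb arrays and 7.74 ± 0.47 on the N118D arrays (SD, n = 3 per group). The groups differed by -0.50 (standard error 0.68, 95% confidence interval -2.19 to 1.18, limma adjusted p of 0.9999). The SD of PAX6 within groups, 1.01, was larger than that of 98.7% of all tested probe sets.

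DBX2, a homeobox factor of interneuron progenitors, was at 5.44, 2.92 and 2.75 in v-Myb replicates 1, 2 and 3, against 3.00, 3.16 and 4.64 in N118D replicates 1, 2 and 3. It was above 4 on 1 array of each group and dim on the other 4 arrays, so no fold between arrays is given. The means, 3.71 ± 1.50 on the v-Myb arrays and 3.60 ± 0.90 on the N118D arrays (SD, n = 3 per group), differed by 0.11.

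OLIG2, a basic helix-loop-helix factor, had levels of 5.01, 4.76 and 4.74 in v-Myb replicates 1, 2 and 3, against 4.72, 4.89 and 4.79 in N118D replicates 1, 2 and 3. It was nearly flat, with a range of 0.29 that was wider than that of only 30.2% of tested probe sets, although v-Myb replicate 1 was again the highest. The means were 4.84 ± 0.15 on the v-Myb arrays and 4.80 ± 0.08 on the N118D arrays (SD, n = 3 per group). They differed by 0.04 (standard error 0.10, 95% confidence interval -0.22 to 0.29, limma adjusted p of 0.9999).

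OTX2, the anterior factor, was read by 2 probe sets and followed another order. The first was at 7.55, 8.28 and 8.47 in v-Myb replicates 1, 2 and 3, against 8.37, 7.38 and 8.02 in N118D replicates 1, 2 and 3. It was low on v-Myb replicate 1, where the other members were high or in the upper part of their range, and lowest on N118D replicate 2. The second was at 4.60, 4.86 and 4.73 in v-Myb replicates 1, 2 and 3, against 4.81, 4.22 and 4.40 in N118D replicates 1, 2 and 3. Both OTX2 probe sets were lowest on N118D replicate 2, but on v-Myb replicate 1 the first deviated by -0.46 from its mean over the arrays and the second by -0.0022. The first had means of 8.10 ± 0.48 on the v-Myb arrays and 7.92 ± 0.50 on the N118D arrays (SD, n = 3 per group). They differed by 0.18 (standard error 0.34, 95% confidence interval -0.66 to 1.01). The second had means of 4.73 ± 0.13 on the v-Myb arrays and 4.48 ± 0.30 on the N118D arrays (SD, n = 3 per group). They differed by 0.25 (standard error 0.17, 95% confidence interval -0.16 to 0.67). The limma adjusted p was 0.9999 for each.

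With 1 probe set per gene, 2 of the 4 tested members were lower in v-Myb cultures and their median difference was -0.14. Over all tested probe sets 50.8% were lower, with a median difference of -0.0018. With 3 arrays per group the smallest p of an exact two-sided permutation test is 0.1, and the 5 tested member probe sets had values of 0.3 to 0.8.

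**Figure D2:**
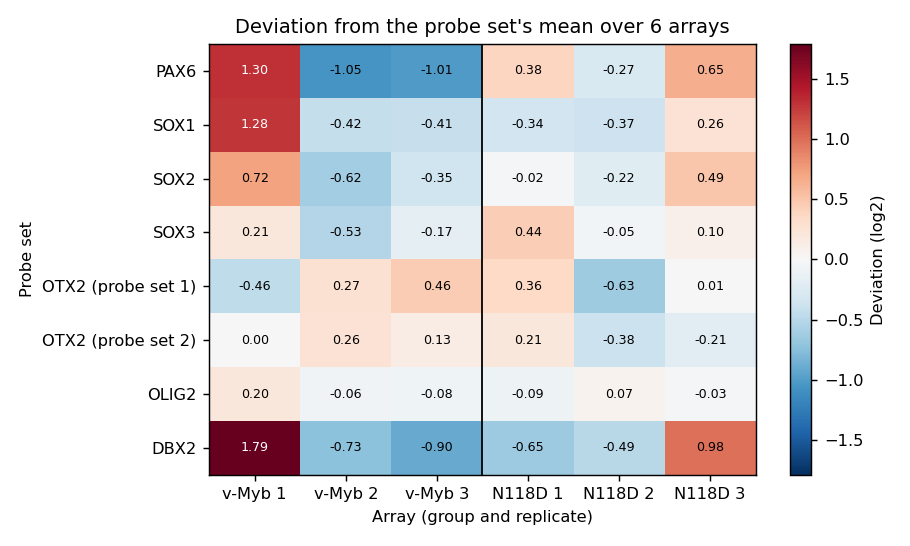
Deviation of each member probe set from its own mean over the 6 arrays (colour and printed value, log2), with arrays in columns, the v-Myb group left of the black line and the N118D group right of it. PAX6, SOX1, SOX2 and DBX2 are at 0.72 to 1.79 on v-Myb replicate 1 and below 0 on v-Myb replicates 2 and 3, while the first OTX2 probe set has the opposite signs on these arrays.

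How alike the members were was described by the side of the mean on which each array fell. PAX6 and SOX3 lay on the same side on 6 of 6 arrays. SOX1, SOX2 and DBX2 did so with each other on 6 of 6 arrays too, whereas OTX2 and OLIG2 shared 0. DBX2 reached 4 on 2 arrays and SOX1 and SOX2 on 1 array each. Elsewhere the sides of these 3 genes were set by values below 4 and are not read as likeness. SOX1 and SOX2, members of 1 subfamily, had the smallest root mean square distance between centred profiles, 0.30 on the log2 scale, over arrays of which 5 had both genes below 4. SOX3 and OLIG2, whose ranges were 0.97 and 0.29, were also 0.30 apart. The pair with the largest distance was OTX2 and DBX2, at 1.28. These figures rest on 6 arrays that all members share.

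Of the 5 tested member probe sets, 2 ranged over at least 1 log2 unit, PAX6 and the first of OTX2, against 12.6% of all tested probe sets. The genes nearest to PAX6 in centred profile among 13440 probe sets with 1 symbol were KBP, PLPP3 and MSANTD1, at root mean square distances of 0.16, 0.16 and 0.17, where the deviations of PAX6 itself had a root mean square of 0.86. PLPP3, which encodes a lipid phosphate phosphatase, was at 7.73, 5.54 and 5.43 in v-Myb replicates 1, 2 and 3, against 6.46, 5.97 and 6.98 in N118D replicates 1, 2 and 3, the order of arrays seen for PAX6 apart from the 2 lowest. The genes nearest to OTX2 were TNFAIP2, NOD1 and TTC28, at 0.16, 0.17 and 0.20, where OTX2 itself had 0.41.

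Because v-Myb replicate 1 stood apart, the comparison was also made without it, a choice made with earlier results of these arrays known. Among the v-Myb arrays it was highest for PAX6, SOX3 and OLIG2 and lowest for both OTX2 probe sets. Leaving it out therefore fixed the direction in which each difference moved. The intervals and p values without it do not allow for this choice. PAX6 then stood at a mean of 6.45 in the remaining v-Myb arrays, against 7.74 in the N118D arrays, which is 2.43-fold lower (difference -1.28, standard error 0.28, 95% confidence interval -2.00 to -0.57). A drop of at least 2-fold was measured for 1.27% of all probe sets in this comparison. SOX3 differed by -0.51 (standard error 0.19, 95% confidence interval -1.003 to -0.018). These 2 of the 5 member probe sets tested had an unadjusted p under 0.05 in limma, 0.0057 for PAX6 and 0.045 for SOX3, as had 7.3% of all probe sets in this comparison, 4.26% with lower levels in v-Myb. Their limma adjusted p was 0.494 and 0.666, and 0% of all probe sets passed the adjusted threshold. The second OTX2 probe set had an unadjusted p under 0.05 in other settings, with v-Myb higher. Its difference was 0.42 without N118D replicate 1 (limma p of 0.017, adjusted 0.9999), where 0.98% of all probe sets were under 0.05 with v-Myb higher. It was 0.41 with array weights (limma p of 0.033, adjusted 0.9999), where 2.05% were. Without both arrays numbered 1 it was 0.49 (limma p of 0.010, adjusted 0.653), where 2.84% were, and PAX6 differed by -1.22 (limma p of 0.021, adjusted 0.713), where 3.84% were under 0.05 with v-Myb lower. Without v-Myb replicate 1 the differences of the OTX2 probe sets were 0.45 and 0.32, and that of OLIG2 was -0.05. The remaining v-Myb arrays were all lower than the N118D arrays for 2 of the 5 tested member probe sets, PAX6 and SOX3, where 25.1% of all probe sets had no overlap in either direction and 13.3% had none with v-Myb lower. The dim genes SOX1, SOX2 and DBX2 also showed no overlap, with differences of -0.26, -0.57 and -0.76. Apart from DBX2 on N118D replicate 3, at 4.64, all these values were below 4, so their order is not read as a result. The shares above cover tested probe sets only. For SOX1 the closest arrays of the groups, v-Myb replicate 3 and N118D replicate 2, were at 2.66 and 2.70.

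The PAX6 difference depended on single arrays of the v-Myb group. Leaving out v-Myb replicates 1, 2 and 3 in turn gave -1.28, -0.10 and -0.13. Leaving out N118D replicates 1, 2 and 3 in turn gave -0.44, -0.77 and -0.31. SOX3 kept a negative difference in each of these, from -0.51 when v-Myb replicate 1 was left out to -0.14 when v-Myb replicate 2 was. The median of the 4 tested members was -0.28 without v-Myb replicate 1, with 3 of 4 lower, where 50.0% of all probe sets were lower and their median was -0.00014.

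**Figure D3:**
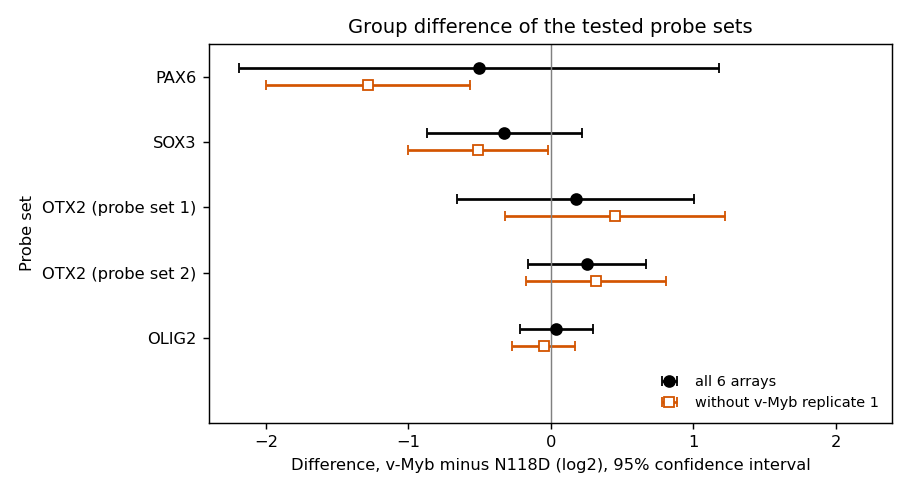
Difference between v-Myb and N118D means (horizontal axis, log2) of each tested member probe set, with 95% confidence intervals from limma as bars. Filled circles use all 6 arrays and open squares leave out v-Myb replicate 1, where PAX6 moves to -1.28 and SOX3 to -0.51 and both intervals lie below 0, with limma adjusted p of 0.494 and 0.666. That array was the highest v-Myb array for both genes, so leaving it out could only lower these differences. The intervals do not allow for this choice.

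Other genes of neural tissue were read from lists, to see what else differed on v-Myb replicate 1. Of 14 tested genes that mark neural progenitors in general, 9 had their highest level on that array. Of 12 tested neuron genes 11 did, and of 14 tested patterning genes of the tube 6 did, where 19.6% of all tested probe sets were highest there. Of the 7 measured members, 5 were highest on it, though 3 of these were SOX1, SOX2 and DBX2, which were not tested. None of the 11 tested neural crest genes and none of the 11 tested melanocyte genes had their maximum on it. For a gene highest on v-Myb replicate 1, leaving that array out must lower its v-Myb mean. The medians of the neuron, progenitor and patterning lists without it, given below, therefore restate these maxima in part.

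Levels of the neuron list, summed on the linear scale over its 16 genes with a probe set, ran from 6000 to 21808 on v-Myb arrays and from 8655 to 12181 on N118D arrays, with the maximum on v-Myb replicate 1 and the minimum on v-Myb replicate 3. NEFM, a neurofilament gene, was at 12.42, 10.28 and 9.95 in v-Myb replicates 1, 2 and 3, against 11.18, 11.02 and 11.44 in N118D replicates 1, 2 and 3, so that v-Myb again held the top value and the lowest values. ELAVL4, an RNA-binding protein of neurons, was at 11.55 on v-Myb replicate 1 and at 9.22 to 10.62 on the other arrays. The neuron list had 7 of 12 tested genes lower in v-Myb with a median difference of -0.03, and 10 of 12 lower with a median of -0.62 without v-Myb replicate 1. Its part in the PAX6 and SOX3 values was not tested.

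The general progenitor list held 14 tested genes of 18 with a probe set, 10 lower and 4 higher in v-Myb, with a median difference of -0.14 that was -0.51 without v-Myb replicate 1. FABP7, a fatty acid binding protein of radial glia, was at 14.15 on v-Myb replicate 1, at 12.72 and 12.70 on v-Myb replicates 2 and 3, and at 13.40 to 13.72 on the N118D arrays. HES5, the Notch effector that keeps progenitors from differentiating, was named after its values were seen. It was at 9.69, 4.07 and 3.41 in v-Myb replicates 1, 2 and 3, against 6.89, 6.28 and 8.28 in N118D replicates 1, 2 and 3. Its array order was that of PAX6 for the 3 highest arrays, v-Myb replicate 1, N118D replicate 3 and N118D replicate 1. VIM and CDH2, which many other cell types also express, differed by 0.00027 and -0.04 between the groups. At an unadjusted p under 0.05 the list had 0 genes.

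Of 27 patterning genes with a probe set 14 were tested, 11 of them lower in v-Myb, with a median difference of -0.12, and -0.44 without v-Myb replicate 1. At an unadjusted p under 0.05 there were 2, both lower in v-Myb, against 1.91% of all probe sets. LMX1B, a LIM homeobox factor, differed by -0.44 (standard error 0.12), and GLI3, a transcription factor of hedgehog signalling, by -0.26 (standard error 0.10), each with a limma adjusted p of 0.9999. NKX6-1, NKX6-2 and FOXA2, genes of the ventral tube named after their values were seen, stood high on the 2 arrays where DBX2 passed 4, and the NKX6 genes were next highest on N118D replicate 2. NKX6-1 was at 10.67, 7.01 and 7.15 in v-Myb replicates 1, 2 and 3, against 7.13, 8.43 and 9.48 in N118D replicates 1, 2 and 3. NKX6-2 was at 7.31, 2.41 and 3.36 in v-Myb replicates 1, 2 and 3, against 1.82, 5.28 and 6.31 in N118D replicates 1, 2 and 3. FOXA2, a floor plate factor, was at 4.81 on v-Myb replicate 1, at 5.09 on N118D replicate 3 and at 2.56 to 2.70 on the other arrays. FOXA2 was thus dim and not tested. The dorsal genes PAX7 and MSX1, which crest cells share, did not stand out on v-Myb replicate 1, where they were at 10.11 and 10.99. Elsewhere PAX7 was at 10.08 to 10.62 and MSX1 at 10.68 to 11.38. High levels on v-Myb replicate 1 were not limited to the ventral genes named. IRX1 and IRX2, also named after their values were seen, had their maximum there, at 6.29 and 8.35. The dorsal gene WNT3A did not have its maximum on v-Myb replicate 1 but on N118D replicate 1. It was at 7.63, 6.64 and 6.60 in v-Myb replicates 1, 2 and 3, and at 7.25 to 7.90 on N118D arrays. A second WNT3A probe set was at 5.89, 5.36 and 5.79, and at 5.90 to 6.46.

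**Figure D4:**
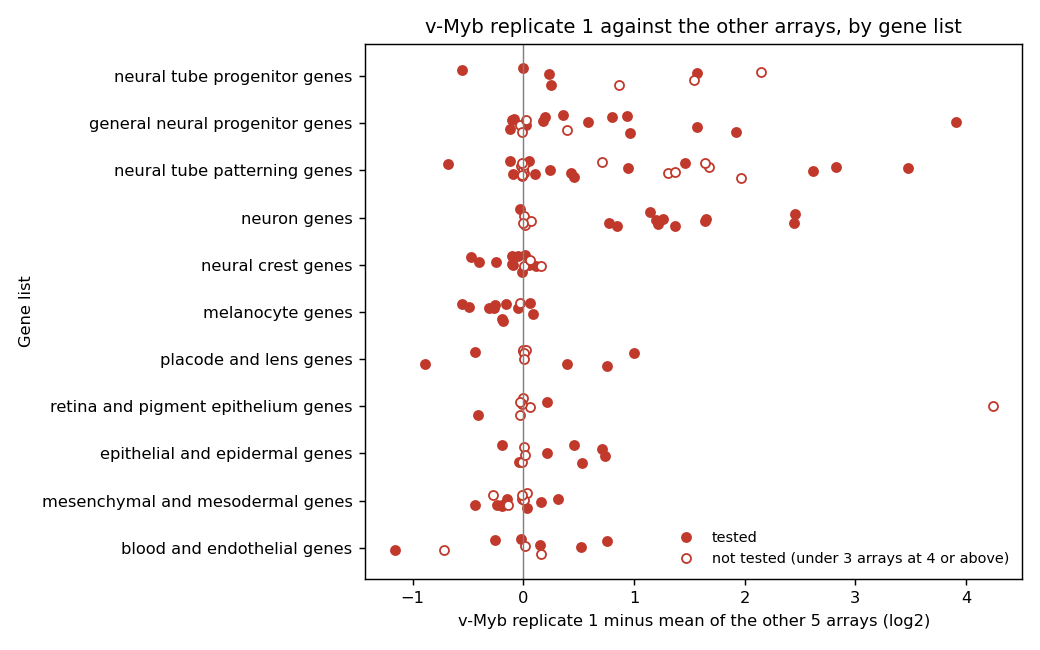
Level on v-Myb replicate 1 minus the mean of the other 5 arrays (horizontal axis, log2) for each gene with a probe set in the lists named on the vertical axis, 1 point per gene (per probe set in the top row), filled where tested and open where under 3 arrays reached 4. Neuron genes and part of both neural progenitor lists lie to the right of 0, with HES5 at 3.91 and NKX6-2 at 3.48, while crest genes lie between -0.47 and 0.16. A median above 0 is not limited to neural lists. Medians over tested genes were 1.24 for neuron, 0.47 for general progenitor, 0.34 for patterning and 0.46 for epithelial genes. Of the 7 tested epithelial genes, 0 had their maximum on v-Myb replicate 1.

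Of the 14 crest genes with a probe set, 11 were tested. SOX10 was at 11.03 to 11.92 and TFAP2B at 11.55 to 12.24 over the 6 arrays, while SOX9, CDH6 and CDH7 stayed below 4 on every array. The list summed to 18042 to 28685 on v-Myb arrays and to 17866 to 19173 on N118D arrays, with the maximum on v-Myb replicate 2. All 11 tested melanocyte genes were higher in v-Myb, with a median difference of 0.47, EDNRB2 being in both lists. Over the array, 8130 of 16526 tested probe sets were higher. At a limma unadjusted p under 0.05 the melanocyte list had 1 gene, against 1.91% of all probe sets. It had 0 at an adjusted p under 0.05. The melanocyte list summed to 29743 to 52602 on v-Myb arrays and to 25394 to 32512 on N118D arrays. Its maximum was on v-Myb replicate 2, and v-Myb replicate 1, at 29743, lay within the N118D range. Mean deviations of its tested genes were -0.17, 0.76 and 0.08 on v-Myb replicates 1, 2 and 3. On N118D replicates 1, 2 and 3 they were -0.41, -0.09 and -0.17. Epithelial genes were also low on v-Myb replicates 2 and 3. Their tested members were lower in 6 of 7 cases with a median difference of -0.82. EPCAM, an epithelial adhesion molecule, was at 11.98, 9.70 and 10.54 in v-Myb replicates 1, 2 and 3, against 12.21, 12.23 and 11.65 in N118D replicates 1, 2 and 3. The 10 epithelial genes with a probe set summed to 12852 to 30345 on v-Myb arrays and to 28751 to 36812 on N118D arrays, and 2 of them were below 4 on every array. The part of these cells in the PAX6 and SOX3 values was not tested.

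PAX6, SOX2, SOX3 and OTX2 are also used by sensory placodes, lens and retina. Of 10 placode and lens genes with a probe set, EYA1, DLX3, FOXE3 and the lens crystallin CRYAA were below 4 on every array. The other 6 were tested, and 5 of them were higher in v-Myb, with a median difference of 0.12. At a limma unadjusted p under 0.05 there was 1, higher in v-Myb, against 1.91% of all probe sets. At an adjusted p under 0.05 there were 0. The placode and lens list summed to 3784 to 6301 on v-Myb arrays and to 3990 to 4442 on N118D arrays. Of 8 genes of retina and pigment epithelium, RPE65, BEST1, RGR, SIX6 and LHX2 were below 4 on every array. VSX1, known from the retina and from spinal interneurons, was at 7.60 on v-Myb replicate 1, at 6.28 on N118D replicate 3 and at 2.12 to 2.99 elsewhere, so the arrays highest for it were those highest for PAX6. VSX1 was under the filter and not tested. TTR, a thyroxine carrier of pigment epithelium and choroid plexus, was at 13.09, 13.21 and 12.88 in v-Myb replicates 1, 2 and 3, against 12.60, 12.99 and 12.68 in N118D replicates 1, 2 and 3. RLBP1, a retinoid carrier, was at 5.19, 6.68 and 5.78 in v-Myb replicates 1, 2 and 3, against 4.55, 5.38 and 5.62 in N118D replicates 1, 2 and 3, and unlike OTX2 it was lowest on N118D replicate 1. The list of 8 summed to 7634 to 9602 on v-Myb arrays and to 6273 to 8209 on N118D arrays. On the linear scale these sums are nearly all TTR, whose level was far above those of the other genes. A second TTR probe set was at 3.00 to 3.43 over the 6 arrays. Mesenchymal and mesodermal genes were lower in 7 of 8 tested cases with a median of -0.19, and blood and endothelial genes in 4 of 6 with a median of -0.08. Their sums were 29601 to 42549 and 518 to 644 on v-Myb arrays, against 36229 to 40262 and 516 to 805 on N118D arrays.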

How the data were processed

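Total RNA (100 ng per sample) was labelled with a 3' in vitro transcription kit, per the labels' protocols. The deposited table holds log2 values, made with GCRMA and Partek 6.4 per the submitters' processing notes. The role of each program is not given in the sources used here. A log2 scale was read from the values (0.78 to 15.83, array medians 3.08 to 3.12). Scanner files were not used here, so background correction could not be varied.

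Symbols came from the platform annotation (27178 probe sets with 1 symbol, 177 with several, 11180 with none). After leaving out 96 control probe sets, 16526 of 38439 reached 4 on at least 3 arrays. The test was limma 3.58.1 under R 4.3.3 (lmFit, eBayes, group as the only term, two-sided, Benjamini-Hochberg over all probe sets tested), and the code was tested on simulated data. Each gene was represented by its tested probe set with the highest mean. The members, the 10 other lists and the alternatives were chosen with earlier results of these data known. Named genes were every member, in each list up to 4 with the highest mean and 4 with the smallest p from which examples were taken, and 3 with the nearest profile per member ranging over at least 1 log2 unit; others are said to be named after their values were seen. CDH6, CDH7, SOX9, EYA1, DLX3, FOXE3, CRYAA, RPE65, RGR, SIX6 and LHX2 were named as the complete sets below 4. Array number limits the precision. Sequences were not used here.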

Additional observations from a re-analysis of the deposited data

How the results depend on the processing

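Results were recomputed with quantile normalization, with each array centred on its median, with no filter, with a minimum of 6, with trend and robust eBayes, with array weights, with the replicate block, with probe sets averaged per gene, and after leaving out each array or both arrays numbered 1. Averaging per gene was used for the members' median only. The number of probe sets past an adjusted p of 0.05 in limma was 0 in all the other settings. The smallest adjusted p of a member was 0.494, for PAX6 without v-Myb replicate 1. The count at an unadjusted p under 0.05 was 315 of 16526 with all arrays, 202 of 12772 at a minimum of 6 and 734 of 38439 with no filter. Over the same 16526 it was 671 with array weights, 666 with the replicate block and 1104 without both arrays numbered 1. It was 176 to 1206 when single arrays were left out. The count of probe sets with no overlap, 948 of 16526, was 2980 of 38439 without a filter. It was 6052 of 16526 without both arrays numbered 1 and 1629 to 4152 when single arrays were left out, as fewer arrays overlap less. Of 68 differences of members, 62 kept their direction. This count includes the changed filters, the trend and robust eBayes and the replicate block. These settings cannot alter a difference of group means here, so the direction was kept by construction. OLIG2 changed sign with array weights (-0.036), without both arrays numbered 1 (-0.089) and when single arrays were left out (-0.051 to 0.089). The first OTX2 probe set ran from -0.097 to 0.45 when single arrays were left out, and was negative when v-Myb replicate 3 (-0.0085) or N118D replicate 2 was missing. Without both arrays numbered 1 PAX6 differed by -1.22 and the OTX2 probe sets by 0.67 and 0.49. The members' median of -0.14 ran from -0.33 at a minimum of 6, which leaves 3 genes, to 0.04 without a filter, which adds SOX1, SOX2 and DBX2. The cause of the other changes was not tested.

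The labels state no pairing of arrays by replicate number. Deviations from the group means correlated at 0.40 for number 1, 0.45 for number 2 and -0.048 for number 3 between the groups. For unlike numbers they ran from -0.57 (v-Myb replicate 1 with N118D replicate 2) to 0.42 (v-Myb replicate 3 with N118D replicate 2). Whether cultures of the same number shared a source was not tested. With the replicate block the SOX3 difference of -0.33 had a standard error of 0.086 and an unadjusted p of 0.019 in limma, against 0.193 without the block, and was the only tested member under 0.05, where 2.12% of all probe sets were under 0.05 with v-Myb lower. Its limma adjusted p was 0.9997, and its differences within numbers 1, 2 and 3 were -0.24, -0.48 and -0.26.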
